A study of Mus musculus with 14 samples.

Results

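The histone variant H3.3 and the chaperones that carry histone H3 were described in mouse 2-cell embryos as 9 genes, taken by symbol from a table of 56923 genes: H3f3a and H3f3b, which encode H3.3, and Hira, Ubn1, Cabin1, Asf1a, Asf1b, Daxx and Atrx. The table holds RNA-seq counts of 14 libraries, each made from 5 embryos of ICR mice, in 7 conditions of 2 libraries. Early 2-cell embryos were collected at 30 h and late 2-cell embryos at 54 h post-hCG. The G&N groups received 5 μM Gne140, an inhibitor of lactate dehydrogenase, and 50 μM NMN with 10 mM lactate from 24 h post-hCG, and the G&N-L groups the same without lactate. In the G&N-L + Lac-CoA group, 1 mM Lac-CoA, the lactyl donor of histone lactylation, was injected in addition. For the late H3K18R and WT groups, the methods describe an injection at 14 h of mRNAs for H3.3, H3.2 and H3.1 (200 ng/μL), with lysine 18 replaced by arginine or as wild type, and their labels name no inhibitor. The labels limit these groups in 4 ways: the early G&N libraries are labelled with Gne140 alone, the early G&N-L libraries are not labelled as lacking lactate, the Lac-CoA libraries are labelled with CoA, and the H3K18R libraries stand in columns named K18A. No group without inhibitor and without injection was analysed here.

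H3.3 is the replacement form of histone H3 and is laid down outside DNA replication. The HIRA complex, in which UBN1 and CABIN1 are partners of HIRA, places H3.3 at active genes and is known for its work on the paternal genome after fertilization, while DAXX with the remodeller ATRX places it at repeats and heterochromatin. ASF1A and ASF1B hand H3-H4 dimers to the HIRA complex and to the replication-coupled CAF-1 complex.

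H3f3a (ENSMUSG00000060743, chr1:180628051-180642178, minus strand) and H3f3b (ENSMUSG00000016559, chr11:115912738-115918788, minus strand) encode the same protein, although 53 of their 136 codons and 313 of their 408 coding bases (76.7%) are identical. Reads over the coding part can therefore be assigned to one gene or the other. The lysine 18 codon, the residue changed in the injected mRNAs, is in capitals in the stretches below, which run over residues 8 to 28 (counted without the start methionine) and are coding exon sequence on mm39, at chr1:180639405-180639467, chr11:115914749-115914811 and, for the H3.1 gene H3c1, chr13:23946250-23946312, all on the minus strand.
H3f3a: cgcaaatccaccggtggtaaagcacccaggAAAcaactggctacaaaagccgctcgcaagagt
H3f3b: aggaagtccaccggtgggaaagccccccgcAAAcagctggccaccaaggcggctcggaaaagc
H3c1: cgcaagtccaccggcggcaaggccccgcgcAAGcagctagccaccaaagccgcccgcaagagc
Both H3.3 genes share 48 of these 63 bases.

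The protein encoded by H3f3a and H3f3b differs from that of H3c1 at 5 residues, 31, 87, 89, 90 and 96. Residues 87 to 90 are the part of H3.3 that its chaperones are known to recognise, and the codons of residues 87, 89, 90 and 96 are in capitals in the coding sequence of residues 80 to 103. The stretches lie at chr1:180630741-180637723 and chr11:115914332-115914492, each interrupted by 1 intron that is left out, and at chr13:23946025-23946096.
H3f3a: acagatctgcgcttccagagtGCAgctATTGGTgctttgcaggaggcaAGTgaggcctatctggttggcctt
H3f3b: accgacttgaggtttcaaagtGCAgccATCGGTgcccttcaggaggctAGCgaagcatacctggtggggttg
H3c1: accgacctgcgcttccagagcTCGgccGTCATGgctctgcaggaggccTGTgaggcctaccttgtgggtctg

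The data are raw read counts per gene. Levels are given as CPM, that is counts scaled to the TMM-normalised size of each library, and errors are SD (n = 2). Library totals ran from 20350427 to 61275465 counts, and 3 counts, the limit that a count of 0 allows, equal 0.049 to 0.147 CPM. This limit covers counting error only, since amplified reads are not independent molecules. The summed level of 10 late 2-cell markers was 200 to 341 CPM in the early and 2570 to 3930 CPM in the late libraries. The sum of 10 oocyte-derived (maternal) transcripts was 20600 to 27500 CPM in the early libraries and 3610 to 19200 CPM in the late ones. Markers of cumulus cells summed to 0.826 to 19.5 CPM over 10 genes, of which 5 were at 0 in all early and 2 in all late libraries. Markers of later embryos summed to 3.12 to 14.7 CPM over 5 genes, of which 1 was at 0 in all early libraries. The H3K18R libraries held 43643 and 83390 counts of H3c1, against 0 to 66 in the other 12 libraries, among them 4 and 3 in the libraries labelled WT. A rise of H3c1 was thus seen under the mutant label only, although the methods describe wild-type H3.1 mRNA for WT, and WT below means the libraries labelled WT. All H3c genes together held 43854 and 83821 counts in the H3K18R libraries, so nearly all of these were H3c1. The means of H3f3a and H3f3b were 802 and 4550 CPM in H3K18R, not above the 827 and 5150 CPM in WT, although mutant H3.2 and H3.3 mRNAs are described as well.

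The largest differences among these genes lay between the early and the late 2-cell stage (the plot of levels by library). Asf1a and Asf1b were lower at the late stage with and without lactate (4.34-fold and 4.3-fold for Asf1a, 3.63-fold and 3.18-fold for Asf1b), and their ranges did not touch those of the early stage in any of the 14 libraries. H3f3b passed the test without lactate only, while the late libraries of Hira and Cabin1 lay above the early ones in each medium without passing it. Of the 9 genes, 2 were called lower and 0 higher with lactate, where 5.47% of 19443 tested genes were called lower and 8.18% higher (edgeR's quasi-likelihood test, adjusted p under 0.05). Without lactate, 3 were called lower and 0 higher, against 5.87% and 5.97% of 18604 tested genes. At an unadjusted p under 0.05 the numbers, in either direction, were 4 and 7, beside 34.4% and 32.5% of all tested genes. DESeq2 called 2 lower and 1 higher with lactate and 4 lower and 3 higher without, beside 30.6% and 28% of all tested genes in either direction. The criterion of the study's volcano plots, a log2 fold change beyond 0.5 together with an unadjusted p under 0.05, was met by 4 of the 9 genes with lactate, beside 34.4% of all tested genes, and by 7 without lactate, beside 32.2%. The median log2 fold change of the 9 genes was -0.17 with and 0.18 without lactate, and that of all tested genes 0.08 and 0.14.

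**Figure D1:**
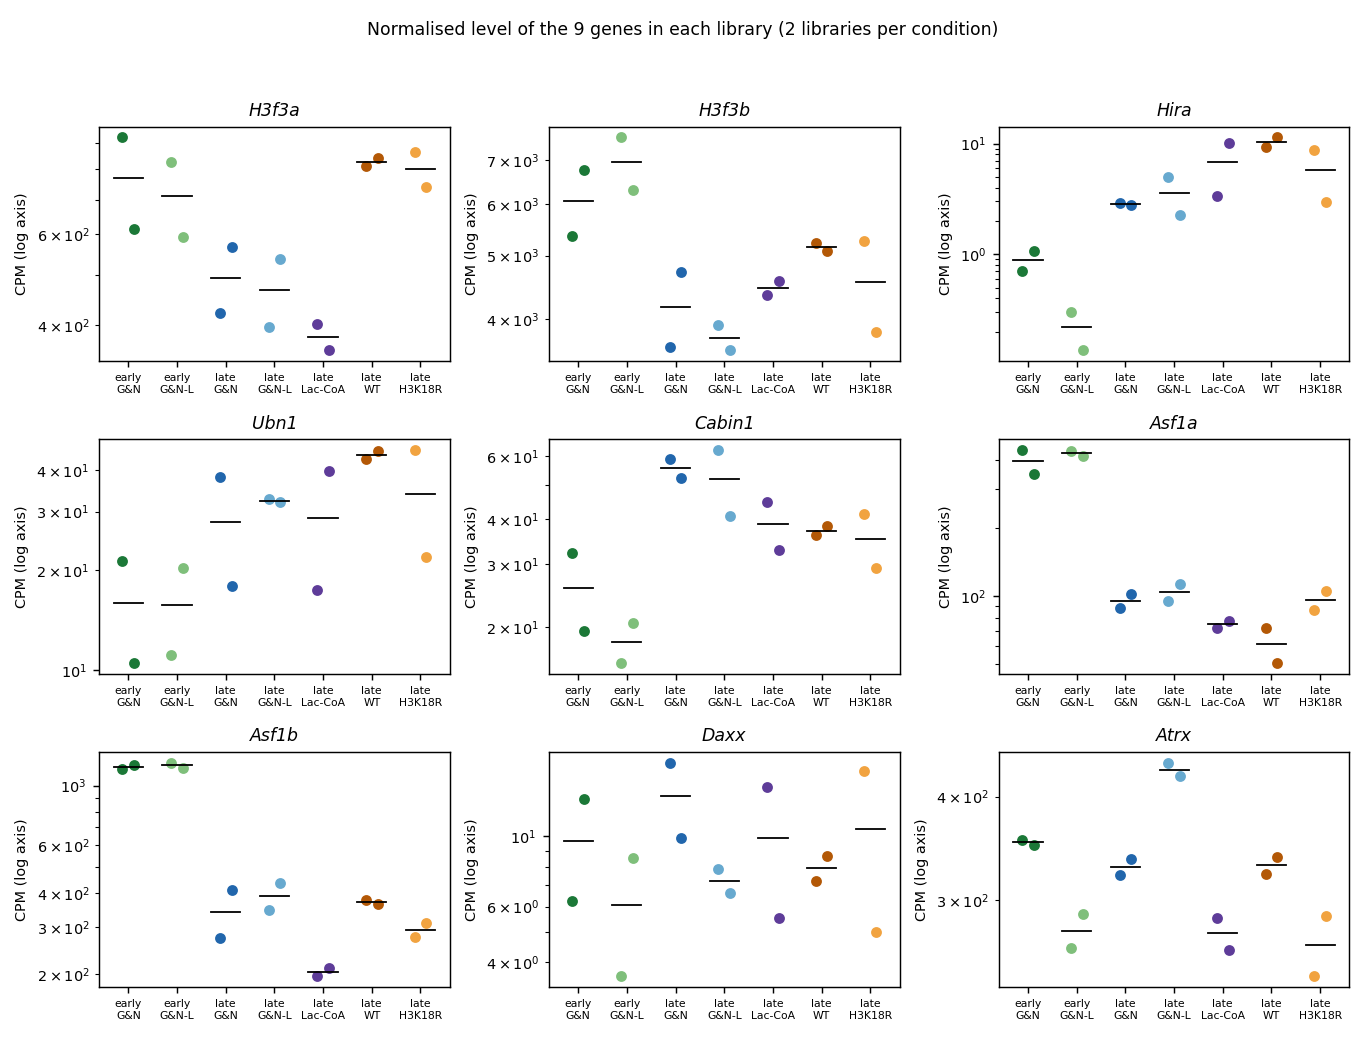
Level of each of the 9 genes (CPM on TMM-normalised library sizes, log axis) in each library, by condition; points are the 2 libraries of a condition and bars their mean. Asf1a and Asf1b sit lower in all late libraries than in any early one, Hira lies at 0.136 to 1.07 CPM early and 2.27 to 11.4 CPM late, and H3f3a lies at 739 to 865 CPM in the late WT and H3K18R libraries, within the span of 594 to 924 CPM of the early ones.

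Asf1b (ENSMUSG00000005470, chr8:84681589-84696978, plus strand), the ASF1 form that is linked to dividing cells, held 1156 and 1190 CPM in the early G&N and 1213 and 1166 CPM in the early G&N-L libraries. At the late stage the G&N libraries held 272 and 411 CPM, the G&N-L libraries 347 and 434 CPM, and 197 and 211 CPM were held in G&N-L + Lac-CoA, 274 and 310 CPM in H3K18R and 376 and 363 CPM in the libraries labelled WT. The 4 early libraries were thus nearly level and all late libraries lay far under them. With lactate it fell by 1.86 on the log2 scale (SE 0.301, adjusted p = 0.0209, edgeR) and fell by 1.67 without lactate (SE 0.162, adjusted p = 0.00821, edgeR).

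Asf1a (ENSMUSG00000019857, chr10:53472853-53486925, plus strand), the form that works with HIRA, held 444 and 347 CPM in the early G&N and 442 and 419.8 CPM in the early G&N-L libraries. The late G&N libraries held 88.5 and 102 CPM, the late G&N-L libraries 95.5 and 114 CPM, and 72.1 and 77.9 CPM were held in G&N-L + Lac-CoA, 86.96 and 105 CPM in H3K18R and 72.0 and 50.4 CPM in WT. It fell by 2.12 (SE 0.245, adjusted p = 0.0106, edgeR) with lactate and had a log2 fold change of -2.105 (SE 0.168, adjusted p = 0.00609, edgeR) without it. Leaving out either late G&N library took the calls of both genes with lactate, at adjusted p of 0.067 to 0.104 in edgeR, while the log2 fold changes stayed between -1.61 and -2.23. The summed maternal markers fell along with them, as given above, and their part in these changes was not tested. That sum rested mostly on Btg4, at 13040 to 17220 CPM in the early libraries, and its genes differed. From early to late G&N, H1f8 fell from 1436 and 1416 to 221 and 245 CPM. Zp3 did not fall, at 65.2 and 31.0 CPM early and 55.4 and 61.1 CPM late. In such pooled embryos, a lower level per cell and fewer contributing cells cannot be told apart.

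Within a library, Asf1a gave 22.6% to 27.8% of the counts of Asf1a and Asf1b together in the early stage, and 12.2% to 26.9% in the late stage. The lowest shares were those of the libraries labelled WT, 16.1% and 12.2%, below all others, and the next lowest was 19.9% in a late G&N library. In the Lac-CoA libraries the share was 26.8% and 26.9%, above the other late libraries. These shares compare counts and not transcripts, since the canonical transcripts are of unequal length, 2201 bases for Asf1a and 1940 for Asf1b.

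Of the H3.3 genes, H3f3b passed the test without lactate, and H3f3a in neither medium. H3f3b held 5355 and 6760 CPM in early G&N and 7583 and 6292 CPM in early G&N-L, and 3628 and 4715 CPM in late G&N and 3911 and 3586 CPM in late G&N-L. The early and late ranges did not overlap in either medium on these TMM-normalised sizes. Without lactate it fell by 0.94 (SE 0.129, adjusted p = 0.0167, edgeR), and with lactate the log2 fold change was -0.63 (SE 0.301, adjusted p = 0.211, edgeR). On library totals the G&N ranges overlapped, at 4455 and 5584 early and 3939 and 4621 late. The changes were then -0.58 without lactate (adjusted p = 0.032, edgeR) and -0.23 with it (adjusted p = 0.522, edgeR). Whether the stage difference itself depended on lactate gave a log2 difference of -0.36 (SE 0.32, adjusted p = 0.849, edgeR interaction), so a difference between media was not shown.

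H3f3a held 924 and 615 CPM in early G&N, 828 and 594 CPM in early G&N-L, 423 and 566 CPM in late G&N and 398 and 537 CPM in late G&N-L. The late libraries of these groups lay under the early ones, but the spread within the early groups was wide. The log2 fold change was -0.69 (SE 0.275, adjusted p = 0.144, edgeR) with lactate and -0.66 (SE 0.218, adjusted p = 0.103, edgeR) without, and neither passed. On library totals the early and late ranges overlapped in both media. The changes were then -0.33 with lactate (adjusted p = 0.485, edgeR) and -0.29 without (adjusted p = 0.39, edgeR). Against the late libraries labelled WT in place of late G&N, an alternative chosen after seeing the data, the change of H3f3a was 0.05 (adjusted p = 0.886, edgeR).

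None of the 3 genes of the HIRA complex passed the stage test in edgeR at its main settings (adjusted p of 0.0587 to 0.394). Hira (ENSMUSG00000022702, chr16:18695787-18789059, plus strand) held 0.706 and 1.07 CPM in early G&N and 0.302 and 0.136 CPM in early G&N-L, which were 36, 47, 12 and 3 counts. The late G&N libraries held 2.87 and 2.78 CPM, the late G&N-L libraries 4.94 and 2.27 CPM, and 3.38 and 10.2 CPM were held in G&N-L + Lac-CoA, 8.67 and 2.94 CPM in H3K18R and 9.22 and 11.4 CPM in WT. All 10 late libraries were above all 4 early ones. The log2 fold change was 1.57 (SE 1.04, adjusted p = 0.359, edgeR) with lactate and 3.96 (SE 1.21, adjusted p = 0.0847, edgeR) without, the latter resting on the 12 and 3 early counts. DESeq2 called the change without lactate (log2 fold change 4.04, adjusted p = 0.0074), as did edgeR over all 14 libraries (3.99, adjusted p = 0.0264), but edgeR with the replicate block (adjusted p = 0.225) or with no filter (adjusted p = 0.156) did not. For the stage with lactate, edgeR called Hira where the libraries labelled WT took the place of late G&N (3.44, adjusted p = 0.0298), a setting added after seeing the data.

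Cabin1 (ENSMUSG00000020196, chr10:75481942-75600193, minus strand) held 32.2 and 19.5 CPM in early G&N, 15.9 and 20.5 CPM in early G&N-L, 59.0 and 52.2 CPM in late G&N and 62.4 and 41.0 CPM in late G&N-L. Its late level was above the early level in each medium, with log2 fold changes of 1.06 (SE 0.346, adjusted p = 0.0896, edgeR) and 1.44 (SE 0.345, adjusted p = 0.0587, edgeR). The call depended on the method and its settings: DESeq2 called both, at adjusted p of 0.00861 and 0.00151. So did edgeR with at least 10 counts in every library, at 0.0402 and 0.0135. On library totals, with no filter or in one fit of all 14 libraries, edgeR called only the change without lactate (adjusted p of 0.0263 to 0.0378). Ubn1 (ENSMUSG00000039473, chr16:4867232-4904153, plus strand) held 10.53 to 21.4 CPM over the 4 early and 17.5 to 45.9 CPM over the 10 late libraries, with overlap, and log2 fold changes of 0.78 (SE 0.553, adjusted p = 0.394, edgeR) and 0.97 (SE 0.411, adjusted p = 0.184, edgeR). The former was 0.104 without late G&N replicate 1.

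Daxx (ENSMUSG00000002307, chr17:34128384-34134564, plus strand) was scarce and uneven at both stages, 3.63 to 13.2 CPM early and 5.00 to 17.0 CPM late, and its log2 fold changes were 0.36 (SE 0.648, adjusted p = 0.76, edgeR) and 0.18 (SE 0.664, adjusted p = 0.904, edgeR). Its partner Atrx (ENSMUSG00000031229, chrX:104841131-104973014, minus strand) was more even, at 355 and 350.2 CPM in early G&N, 263 and 289 CPM in early G&N-L, 322 and 336 CPM in late G&N and 439 and 423 CPM in late G&N-L. Its stage change was -0.17 (SE 0.231, adjusted p = 0.663, edgeR) with lactate, a value that turned to 0.22 on library totals without TMM, and 0.58 (SE 0.161, adjusted p = 0.0739, edgeR) without lactate. DESeq2 called the latter (0.63, adjusted p = 0.00235), as did edgeR on library totals (adjusted p = 0.03) and with at least 10 counts in every library (adjusted p = 0.0201).

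**Figure D2:**
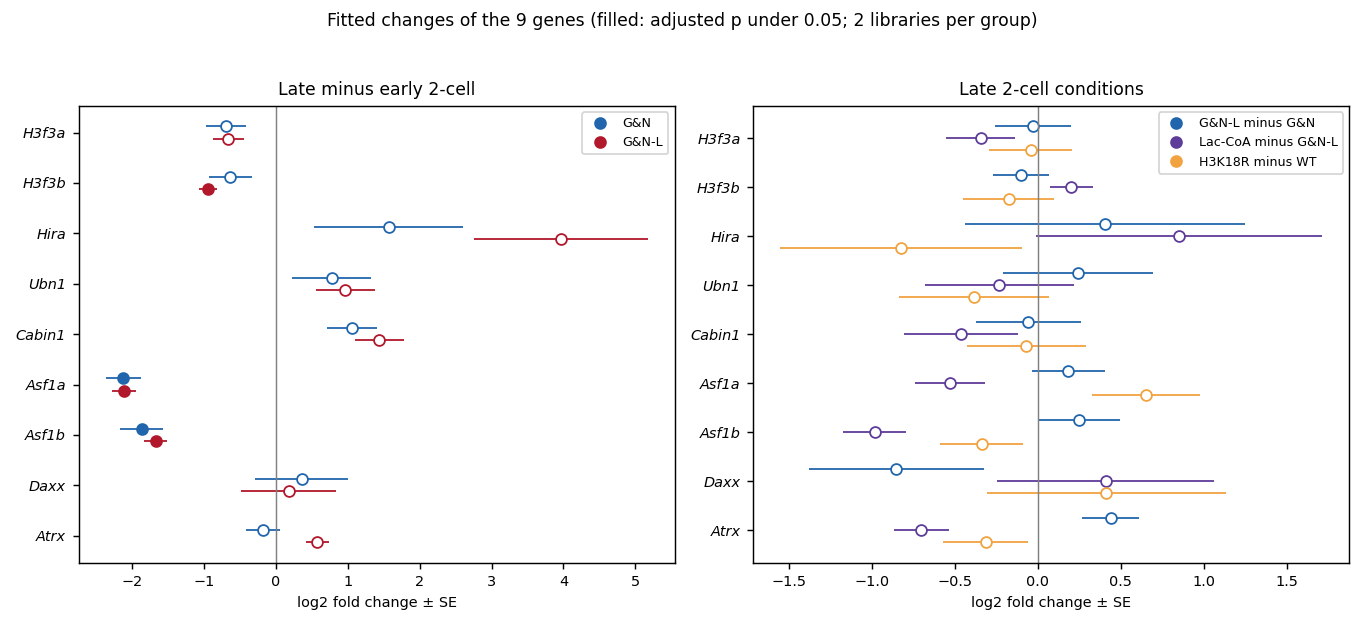
Log2 fold change ± SE of the 9 genes from the edgeR fits (2 libraries per group), late minus early 2-cell on the left and between late 2-cell conditions on the right; filled points have an adjusted p under 0.05. On the left only Asf1a and Asf1b in both media and H3f3b without lactate are filled, and on the right no point is.

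Per kilobase of canonical transcript, the order of the genes in early G&N embryos was H3f3b (3030 ± 497 CPM per kb), Asf1b (605 ± 12.3), Asf1a (180 ± 31.4), H3f3a (165 ± 46.7), Atrx (34.0 ± 0.319), Daxx (3.76 ± 1.89), Cabin1 (3.46 ± 1.20), Ubn1 (2.27 ± 1.09) and Hira (0.210 ± 0.0608). Asf1a and H3f3a did not differ beyond their spread, nor did Daxx, Cabin1 and Ubn1. In late G&N embryos the order was H3f3b (2090 ± 385), Asf1b (176 ± 50.9), H3f3a (106 ± 21.6), Asf1a (43.3 ± 4.34), Atrx (31.7 ± 0.958), Cabin1 (7.45 ± 0.649), Daxx (5.21 ± 1.97), Ubn1 (3.98 ± 2.03) and Hira (0.670 ± 0.016). The genes of the HIRA complex and Daxx were thus at the bottom at both stages, and H3f3b at the top. The Hira level may be too low, since 64.4% of the 50-base stretches of its transcript also occur in Gm28539. Whether its reads were lost in this way was not tested. With the union of all annotated exons as the length, a setting added after seeing the data, H3f3a (126 CPM per kb) came above Asf1a (71.6) in early G&N and, at 80.9, above Asf1b (41.8) in late G&N.

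H3f3a gave 7.27% to 16.2% of the counts of both H3.3 genes. The share was 14.1% and 16.2% in H3K18R and 13.5% and 14.2% in WT, against 7.27% to 13.0% in the other late libraries, so the libraries of these groups lay above all of those (the plot of shares). Early libraries ran from 8.34% to 14.7%, the whole of this span lying within the early G&N group, and overlapped both. Other genes listed under an H3.3 symbol together held 303 to 1112 counts, 0.195% to 0.487% of the H3.3 total. Of the 50-base stretches of the canonical H3f3a transcript, 13.1% also occur in transcripts of other genes, and 10.6% of those of H3f3b, so a part of their reads may have been placed elsewhere or dropped. For Hira the share was 64.4%, all with Gm28539, a gene on the same strand that was listed with 0 counts in all 14 libraries. Asf1a overlaps Mcm9, Ubn1 Glyr1 and Hira Mrpl40 on the other strand, and the strand setting of the counting is not given in the sources used here.

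**Figure D3:**
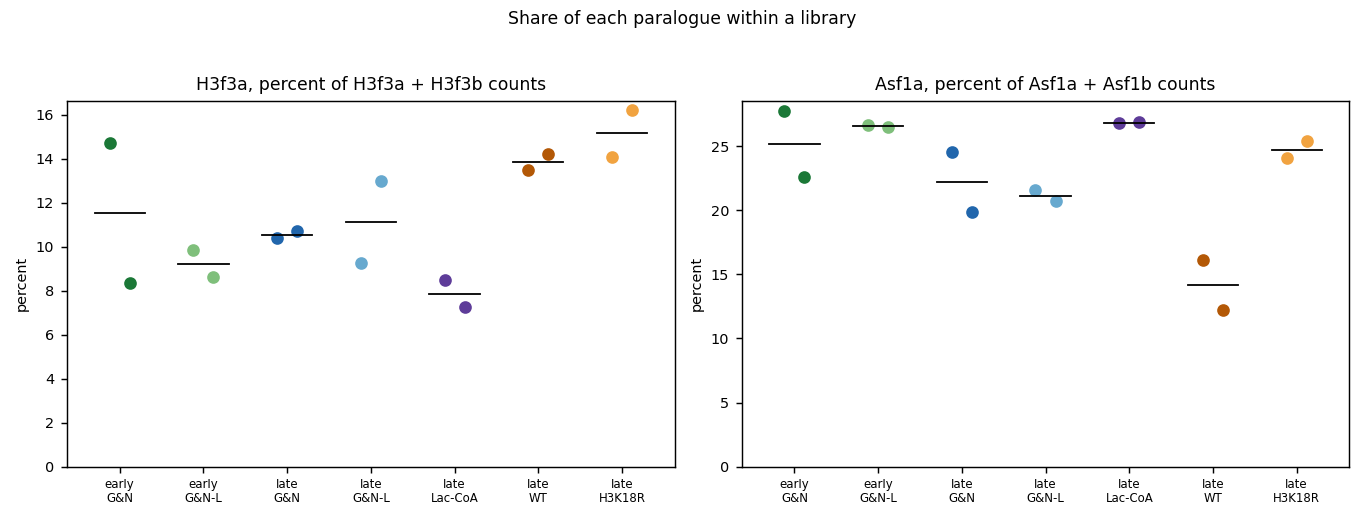
Percent of the counts of both H3.3 genes that fell on H3f3a (left) and of both ASF1 genes that fell on Asf1a (right), per library and condition, with the mean of the 2 libraries as a bar. The H3f3a share is 13.5% to 16.2% in the late WT and H3K18R libraries and at most 13.0% in the other late ones; the Asf1a share is lowest in WT.

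Among the late conditions, H3f3a was the 1 gene of the 9 that passed a test over all 5 groups (adjusted p = 0.0491, edgeR F test), beside 7.81% of 23611 tested genes. Its level was 827 ± 19.9 CPM in WT, 802 ± 89.2 in H3K18R, 495 ± 101 in G&N, 467 ± 98.2 in G&N-L, and lowest in G&N-L + Lac-CoA at 380 ± 31.3. The libraries of the first 2 groups, 813 and 841 CPM and 865 and 739 CPM, lay above the other 6, of which the highest held 566 CPM, while neighbours within each set overlapped. The call was lost when either WT library, late G&N-L replicate 1 or late G&N-L + Lac-CoA replicate 2 was left out, at adjusted p of 0.06 to 0.0808 in edgeR, with the replicate block, at 0.0817, and in one fit of all 14 libraries, at 0.0538. Between WT and G&N, H3f3a was higher by 0.70 (SE 0.201, adjusted p = 0.0995, edgeR), and 0 of the 9 genes were called, with 2 at an unadjusted p under 0.05 and 2 by DESeq2 (H3f3a, adjusted p = 0.0109, and Hira, adjusted p = 0.04). Of 18986 tested genes, edgeR called 4.62% and DESeq2 21.6%. The volcano criterion was met by 2 of the 9, beside 28% of all tested genes. Hira had a log2 fold change of 1.82 (SE 0.584, adjusted p = 0.117, edgeR), and Asf1a one of -0.68 (SE 0.271, adjusted p = 0.181, edgeR). The maternal marker sum also differed, at 3610 to 8220 CPM in the WT and H3K18R libraries and 9890 to 19200 CPM in the other late ones. Its genes did not move together. Btg4 was lower in WT and H3K18R, at 1298 to 3857 CPM against 5413 to 11750 CPM, and Zp3 was higher, at 90.4 to 157 CPM against 37.1 to 61.1 CPM. The labels name the inhibitor in the other late groups only, so that these differences cannot be told apart, and whether reads of injected H3.3 mRNA were counted in these genes was not tested.

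For lactate removal at the late stage, 0 of the 9 genes passed the adjusted threshold in edgeR or DESeq2, and 1 had an unadjusted p under 0.05. Of all 19481 genes tested, 0% passed in edgeR, with 2332 genes at an unadjusted p under 0.05 and 916 called by DESeq2. The volcano criterion was met by 0 of the 9, beside 11.9% of all tested genes. Atrx was the gene with the unadjusted p: both G&N-L libraries, given above, lay above both G&N libraries, with a log2 fold change of 0.44 (SE 0.173, adjusted p = 0.413, edgeR). Daxx had the lowest value, -0.85 (SE 0.525, adjusted p = 0.663, edgeR), at 7.90 and 6.602 CPM in G&N-L against 17.0 and 9.85 CPM in G&N. The other 7 genes overlapped between the groups, and the median of the 9 was 0.18, beside -0.02 for all tested genes.

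For lactate removal at the early stage, 0 of the 9 genes passed in edgeR or DESeq2, 0 had an unadjusted p under 0.05, and 0 met the volcano criterion, which 4.5% of 17343 tested genes met. No tested gene passed (0%), 784 had an unadjusted p under 0.05 and DESeq2 called 37. The log2 fold changes of the 9 ran from -1.92 for Hira (SE 1.54, adjusted p = 1, edgeR), on the few counts given above, to 0.29 for H3f3b (SE 0.222, adjusted p = 1, edgeR). Atrx lay below the G&N libraries in both G&N-L libraries, with a value of -0.23 (SE 0.203, adjusted p = 1, edgeR).

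Atrx thus stood on opposite sides of G&N at the early and the late stage. The difference of its changes was 0.71 (SE 0.277, adjusted p = 0.65, edgeR interaction over 8 libraries). Of the 9 genes, 0 passed the interaction in edgeR or DESeq2, and 1 had an unadjusted p under 0.05. No gene of 22287 tested passed (0%), with 1684 at an unadjusted p under 0.05 and 224 called by DESeq2, and the volcano criterion was met by 1 of the 9, beside 7.56% of all tested genes.

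Lac-CoA embryos compared with G&N-L embryos gave the lowest unadjusted p of these genes among the late comparisons. No control injection is described for the G&N-L or G&N embryos. Injection and Lac-CoA therefore cannot be told apart in the values that follow. Asf1b was lower by 0.98 on the log2 scale (SE 0.188, adjusted p = 0.294, edgeR), Atrx had 286 and 262 CPM against 439 and 423 CPM (log2 fold change -0.70, SE 0.166, adjusted p = 0.294, edgeR), and Asf1a a log2 fold change of -0.53 (SE 0.21, adjusted p = 0.379, edgeR). All 3 were below G&N-L in both libraries. None of the 9 passed in edgeR (0, with 2 at an unadjusted p under 0.05), and DESeq2 called 2, Asf1b (adjusted p = 0.000439) and Atrx (adjusted p = 0.00739). No gene of 19610 tested passed in edgeR (0%), with 2609 at an unadjusted p under 0.05 and 1183, or 6.03%, called by DESeq2. The volcano criterion was met by 2 of the 9, beside 13.2% of all tested genes. Hira had the highest value, 0.85 (SE 0.863, adjusted p = 0.808, edgeR), which became -0.13 without G&N-L + Lac-CoA replicate 2. The sum of the maternal markers, mostly Btg4, stood at 14100 and 9890 CPM in the Lac-CoA and 16700 and 19200 CPM in the G&N-L libraries. The sum of the late 2-cell markers stood at 3930 CPM in both Lac-CoA libraries and 2710 and 2970 CPM in G&N-L. The part of these markers in the values of Asf1a, Asf1b and Atrx was not tested.

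Set against the late G&N libraries, the same Lac-CoA libraries gave 0 calls among the 9 genes in edgeR and in DESeq2, with 1 gene at an unadjusted p under 0.05. That gene, Asf1b, was below both G&N libraries, with a log2 fold change of -0.64 (SE 0.253, adjusted p = 0.569, edgeR). Hira had the highest value, 1.35 (SE 0.814, adjusted p = 0.824, edgeR). No gene of 19613 tested passed in edgeR (0%), with 1670 at an unadjusted p under 0.05 and 471 called by DESeq2. The volcano criterion was met by 1 of the 9, beside 8.51% of all tested genes. The comparisons of G&N-L and of Lac-CoA share libraries, and their values for these genes are given side by side only. Here too, injection and Lac-CoA cannot be told apart.

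Between H3K18R and the libraries labelled WT, 0 of the 9 genes passed in edgeR or DESeq2, 0 had an unadjusted p under 0.05, and 0 met the volcano criterion, beside 6.44% of 17704 tested genes. Of these, 1 gene (0.00565%), higher in H3K18R, passed the adjusted threshold in edgeR, and 118 (0.667%) passed in DESeq2. The highest log2 fold change of all tested genes was 14.4, and H3c1 held 43643 and 83390 counts in H3K18R against 4 and 3 in WT. No response of the embryo is read from this 1 call. Asf1a had the highest value, 0.65 (SE 0.325, adjusted p = 0.83, edgeR), and both H3K18R libraries lay above both WT libraries, 86.96 and 105 CPM against 72.0 and 50.4 CPM. Asf1b was below WT in both libraries, with a log2 fold change of -0.34 (SE 0.249, adjusted p = 0.895, edgeR), as was Atrx, at 243 and 288 CPM against 323 and 338 CPM (-0.31, SE 0.255, adjusted p = 0.913, edgeR). Hira had the lowest value, -0.82 (SE 0.726, adjusted p = 0.923, edgeR). In all of these comparisons of 2 against 2 libraries, an exact permutation test cannot give a two-sided p below 0.333, and the standard errors show what size of change was within reach.

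The pathway beyond these genes was read from 30 other chaperone, carrier and partner genes, such as the CAF-1 subunits, FACT, the nucleoplasmins, NAP1-like proteins and the DAXX and ATRX partners. From the early to the late stage with lactate, 3 of the 30 were called higher and 6 lower, beside the 8.18% and 5.47% of all tested genes, with a median log2 fold change of -0.12 (all tested genes 0.08). Without lactate, 2 were called higher and 9 lower, beside 5.97% and 5.87% of all tested genes, with a median of -0.46 (all tested genes 0.14). The lowest with lactate were Rbbp7, a histone-binding protein of CAF-1 and other complexes, which fell by 3.44 (SE 0.33, adjusted p = 0.00731, edgeR), and Chaf1a, the large CAF-1 subunit, which fell by 2.81 (SE 0.52, adjusted p = 0.0288, edgeR) from 28.7 to 4.20 CPM. Rbbp7 was also the lowest without lactate (-3.17, SE 0.218, adjusted p = 0.00512, edgeR), followed by Supt16, a FACT subunit (-2.17, SE 0.19, adjusted p = 0.00729, edgeR).

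Against this direction, Set, an acidic chaperone that also blocks histone acetylation, rose from 19.3 and 11.8 to 444 and 567 CPM with lactate (log2 fold change 4.97, SE 0.339, adjusted p = 0.00599, edgeR) and from 15.2 and 15.2 to 238 and 221 CPM without it (3.85, SE 0.194, adjusted p = 0.00489, edgeR). Dek, a chromatin protein linked to H3.3, rose without lactate by 0.86 (SE 0.164, adjusted p = 0.0346, edgeR). Cdan1, a partner of ASF1 in the cytoplasm, had the highest log2 fold change with lactate, but its early level of 0.0589 and 0 CPM lay near or under the limit of detection, beside 11.8 and 3.86 CPM at the late stage, so no fold is given (adjusted p = 0.0355, edgeR).

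**Figure D4:**
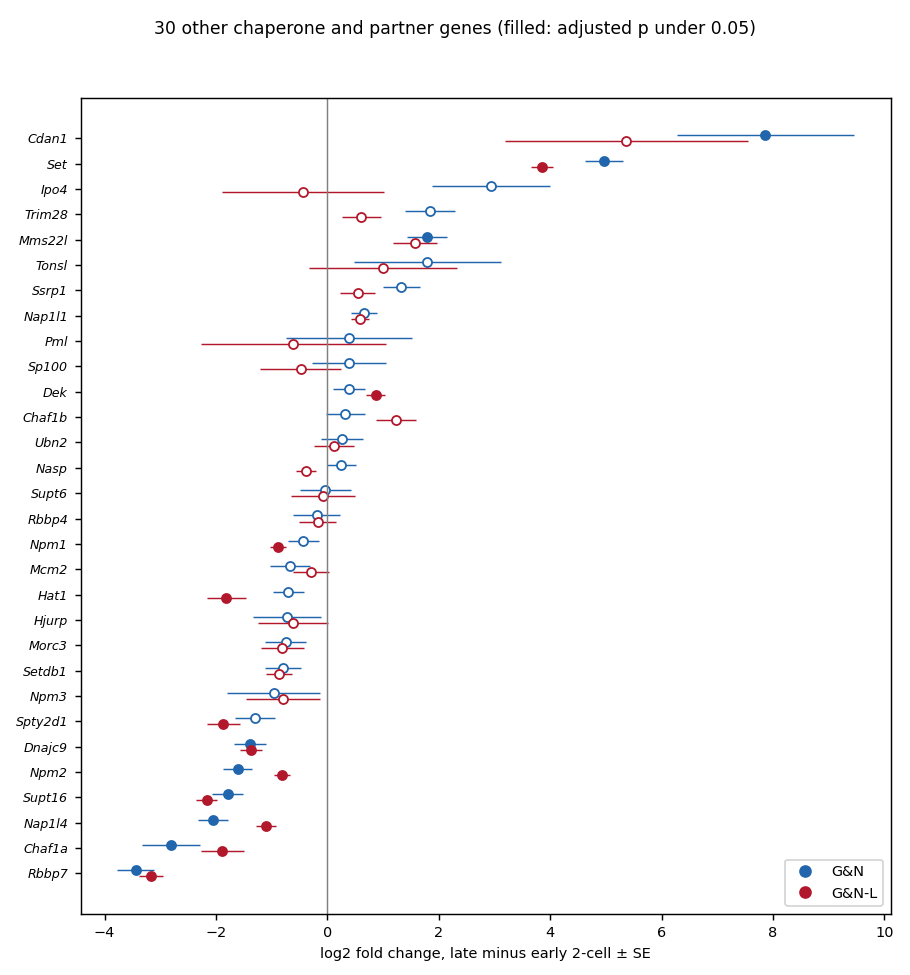
Log2 fold change ± SE, late minus early 2-cell, of 30 other chaperone, carrier and partner genes in G&N and in G&N-L (edgeR, 2 libraries per group); filled points have an adjusted p under 0.05. Rbbp7 lies lowest at -3.44 and -3.17, Set highest among the well-counted genes at 4.97 and 3.85.

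In the other comparisons, 0 of the 30 genes passed the adjusted threshold in edgeR, with 7 at an unadjusted p under 0.05 on lactate removal at the late stage, 1 of 29 tested at the early stage, 6 for Lac-CoA against G&N-L, 1 for Lac-CoA against G&N, 1 for H3K18R, 7 for WT against G&N and 4 for the interaction. Of all tested genes, the same unadjusted threshold was met by 12%, 4.52%, 13.3%, 8.51%, 6.44%, 28% and 7.56% in these comparisons, in this order. Over the 5 late groups, 5 of the 30 passed (Nasp, Ipo4, Npm1, Npm2 and Set), beside 7.81% of all tested genes. The lowest p of the 30 on late lactate removal was that of Set (adjusted p = 0.311, edgeR), at 238 and 221 CPM in G&N-L against 444 and 567 CPM in G&N, 335 and 439 CPM in G&N-L + Lac-CoA, 918 and 609 CPM in H3K18R and 983 and 1057 CPM in WT.

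Likeness of pattern was read as Pearson's r of log2 CPM over the 14 libraries, among 9889 genes with a mean of at least 5 CPM. Since the libraries fall into 2 stages and share conditions, these values follow the stage where a gene changed with it. Asf1a was most like Pfdn4 (0.989) and Spcs1 (0.985), Asf1b most like Sucla2 (0.974) and Sod1 (0.973), and Hira most like Stil and Iho1 (both 0.961). H3f3a was most like Gm6421 (0.933), which shares 50-base stretches with it, and Cdc42 (0.922), and H3f3b most like Selenok (0.919) and Nsmce2 (0.914). For Ubn1 the nearest were 1810019D21Rik (0.908) and 1700029F12Rik (0.894), and for Cabin1 Adh6a (0.915) and Gm16344 (0.897). Daxx (Tek, 0.749, and Myoz3, 0.718) and Atrx (Isg20, 0.844, and Gm47918, 0.781) had the lowest top values of the 9. By Spearman's rank correlation the nearest gene stayed the same for Asf1b only (Sucla2, 0.965). For Asf1a it became Pld2 (0.982) and for Hira Mtif2 (0.96), so the nearest genes depend on the measure.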

How the data were processed

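RNA-seq libraries of 5 embryos each were analysed. The deposited values are raw counts per gene, which the authors made with HISAT2 (mm39) and featureCounts after FastQC and Trim Galore, per the submitters' processing notes. Groups were taken from the sample titles; where the labels give no separate origin, p-values measure the spread between these samples only. Counts were tested in R 4.3.3 with edgeR 4.0.16 (filterByExpr, TMM, quasi-likelihood test, two-sided, Benjamini-Hochberg over all genes tested, a separate fit per comparison), with DESeq2 1.42.0 as an alternative. CPM used the normalised library sizes of all 14 libraries. Replicates differed by more than counting noise (chi-square per degree of freedom 47.8 to 195). Coordinates and transcripts are GENCODE vM39, in which 56236 of 56923 gene IDs were found without version, and the coding sequences were read from that genome, mm39.

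The 9 genes, the 30 wider genes and the marker lists were chosen with earlier results of these data known. All 9 genes were named, of the wider list the 2 highest and 2 lowest called in the stage comparisons (Set was also described in the late conditions after its values were seen), and for each gene the 2 of most similar pattern. The protocol text gives 3 replicates per group, the counts hold 2. Alternatives were DESeq2, its size factors, library totals, no filter, at least 10 counts per library, one fit of all libraries, a block on the replicate number and each library left out.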

Additional observations from a re-analysis of the deposited data

Results flagged for a closer look

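Atrx was singled out because its changes without lactate went opposite ways at the 2 stages in every library: both early G&N-L libraries (263 and 289 CPM) lay below both early G&N libraries (355 and 350.2 CPM), and both late G&N-L libraries (439 and 423 CPM) above both late G&N libraries (322 and 336 CPM). The difference of the changes was 0.71 on the log2 scale (SE 0.277, adjusted p = 0.65, edgeR interaction) and did not pass the adjusted threshold.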

How the results depend on the processing

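Over 90 fits of a gene in a comparison and 1086 alternatives, 10 calls were lost, 21 gained, and 65 log2 fold changes changed sign, 0 of them among changes that were called at first. Shares of all tested genes at the same setting stand in brackets where they were computed. By DESeq2, the number of the 9 genes called became 2 for Lac-CoA against G&N-L (6.03%) and 2 for WT against G&N (21.6%), where edgeR called 0. Over the late conditions it became 3 by DESeq2, where edgeR called 1. For the stage without lactate, 3 genes were called at first (11.8%). This number became 7 by DESeq2 (28%). It became 5 on library totals (13.4%), in one fit of 14 libraries (10.2%), or with at least 10 counts in every library. It was 4 for the stage with WT in place of late G&N, where 2 were called at first. In that alternative, chosen after seeing the data, H3f3a (0.049) and Daxx (-0.40) changed sign. Over the late conditions the number of the 9 genes called became 0 in the fit of 14 libraries. Leaving out libraries gave 0 to 2 calls for the stage (0 without either late G&N library) and 0 to 1 over the late conditions. Daxx changed sign for the stage without early G&N replicate 1 (-0.015, range -0.12 without late G&N replicate 1 to 1.174) and for the stage without lactate (-0.35 without early G&N-L replicate 1 to 0.973), Hira for Lac-CoA against G&N-L (-0.13 without Lac-CoA replicate 2 to 1.524), and Atrx for the stage on library totals (0.22). The replicate numbers showed little shared deviation between groups (r of -0.04 to 0.01 over 25041 genes), and the main fits used no pairing. That value covers all genes at once, so a pairing that touches only a part of the genes was not tested. The replicate block gave 0 calls over the late conditions and the same number of calls elsewhere. Scaling on library totals moved the median of all genes between the stages from 0.08 to 0.46 with and from 0.14 to 0.51 without lactate, and the genes called higher and lower from 1591 and 1063 to 1988 and 616 with and from 1111 and 1092 to 1817 and 685 without it. With 2 libraries a group, and 3 counts for Hira in the shallowest early library, small changes of scarce genes were not detectable. The causes of these differences were not tested.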
